A study of Mus musculus with 4 samples.

Results

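The 7 genes described here were grouped as marrow egress and retention receptors. Their RNA was followed in Ly6C-high (classical) monocytes of young and old mice, and egress itself was not measured. They were chosen by name as the rows of Ccr2, Cx3cr1, Cxcr4, Ccr1, Itga4, Itgb1 and Itgb2, 7 of the 27998 genes counted, and all 7 were found in both data sets. The cells were single monocytes sorted by flow cytometry as Ly6G- CD11b+ CD115+ Ly6C-high from the marrow of C57BL/6 wild-type mice. The cells of each mouse were labelled with their own hashtag antibody and then pooled, so that 1 library held 5 young females (15 weeks old) and 5 old females (26.5 months old) and the other held 5 young males (14 weeks old) and 5 old males (27 months old). Sex and experiment coincide, so levels were compared within a pool and never between pools. The mice received no treatment and carried no engineered allele.

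The exit of Ly6C-high monocytes from the marrow depends on CCR2, a receptor for the chemokines CCL2 and CCL7. CXCR4 acts the other way, holding myeloid cells near stromal cells that make CXCL12, and CX3CR1 is the fractalkine receptor that is highest on the Ly6C-low monocytes of blood. CCR1 is a receptor for CCL3 and CCL5. Itga4 and Itgb1 encode the chains of VLA-4, which binds VCAM-1 and fibronectin, and Itgb2 encodes the beta chain that pairs with CD11a and CD11b.

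After removal of cells with a high mitochondrial share and of female cells not called singlets, 6636 female and 1227 male cells were analyzed, and no barcode occurred in both pools. A female mouse gave 239 to 1710 cells and a male mouse 49 to 206. Summed UMIs (unique molecular identifiers, each counting 1 captured RNA molecule) were 2720012 to 18832388 per female mouse and 330586 to 1108320 per male mouse. Levels are given as CPM, the UMIs of a gene scaled to the summed UMIs of its mouse or class of cells (counts-per-million, with TMM factors). The Ly6C-high marker list (Ly6c2, Csf1r, Itgam, Ccr2, Lyz2 and Chil3) summed to 25057 to 31561 CPM in females and 15739.8 to 38168 CPM in males. In the male pool Lyz2 alone had 181838 UMIs, beside 17613 for Ly6c2, 1042 for Csf1r and 557 for Itgam, the genes of the sorted proteins. Markers of other cells varied more, and the neutrophil list summed to 182 to 1603 CPM in females and 254 to 4742 CPM in males, although Ly6g had 24 UMIs in the female and 3 UMIs in the male pool. Gzma, which marks cytotoxic lymphocytes, was at 0 UMIs in both pools, while Prss34, a basophil protease, had 497 UMIs in the male and 0 UMIs in the female pool. These 2 genes do not stand for their lists. Of 9 T or NK cell genes, 3 were not detected in the female and 5 in the male pool, and of 7 basophil genes 2 and 0. Cells with 2 or more UMIs of T or NK, basophil or B cell markers were 4400 of 6636 in females, or 910 with Il6ra of the basophil list not counted. In old male 4, 40 of 49 cells carried a UMI of a proliferation gene. Results that rest on this mouse name it, and some are given with and without it. The mice of a group were separate animals.

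The largest differences of these receptors were found between cycling and other cells of the same mouse. A cell was called cycling if it held at least 1 UMI of Mki67 or Top2a, which applied to 3777 female cells (56.9%) and 414 male cells (33.7%). In females all 7 members passed the test, 1 higher and 6 lower in cycling cells, where 74.8% of the genes tested passed it, 36.2% as higher and 38.6% as lower. With so many genes called, the size of the difference says more than the call. Cxcr4 was higher by 2-fold or more, as were 10.1% of genes, and Ccr2, Cx3cr1, Itga4 and Itgb2 were lower by 2-fold or more, as were 6.03% of genes. In males 6 of 7 passed, 1 higher and 5 lower, against 49% of the genes tested, 23.7% as higher and 25.3% as lower. There Cxcr4 was again higher by 2-fold or more, as were 6.4% of genes, and Cx3cr1, Itga4 and Ccr2 were lower by 2-fold or more, as were 3.94% of genes.

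**Figure D1:**
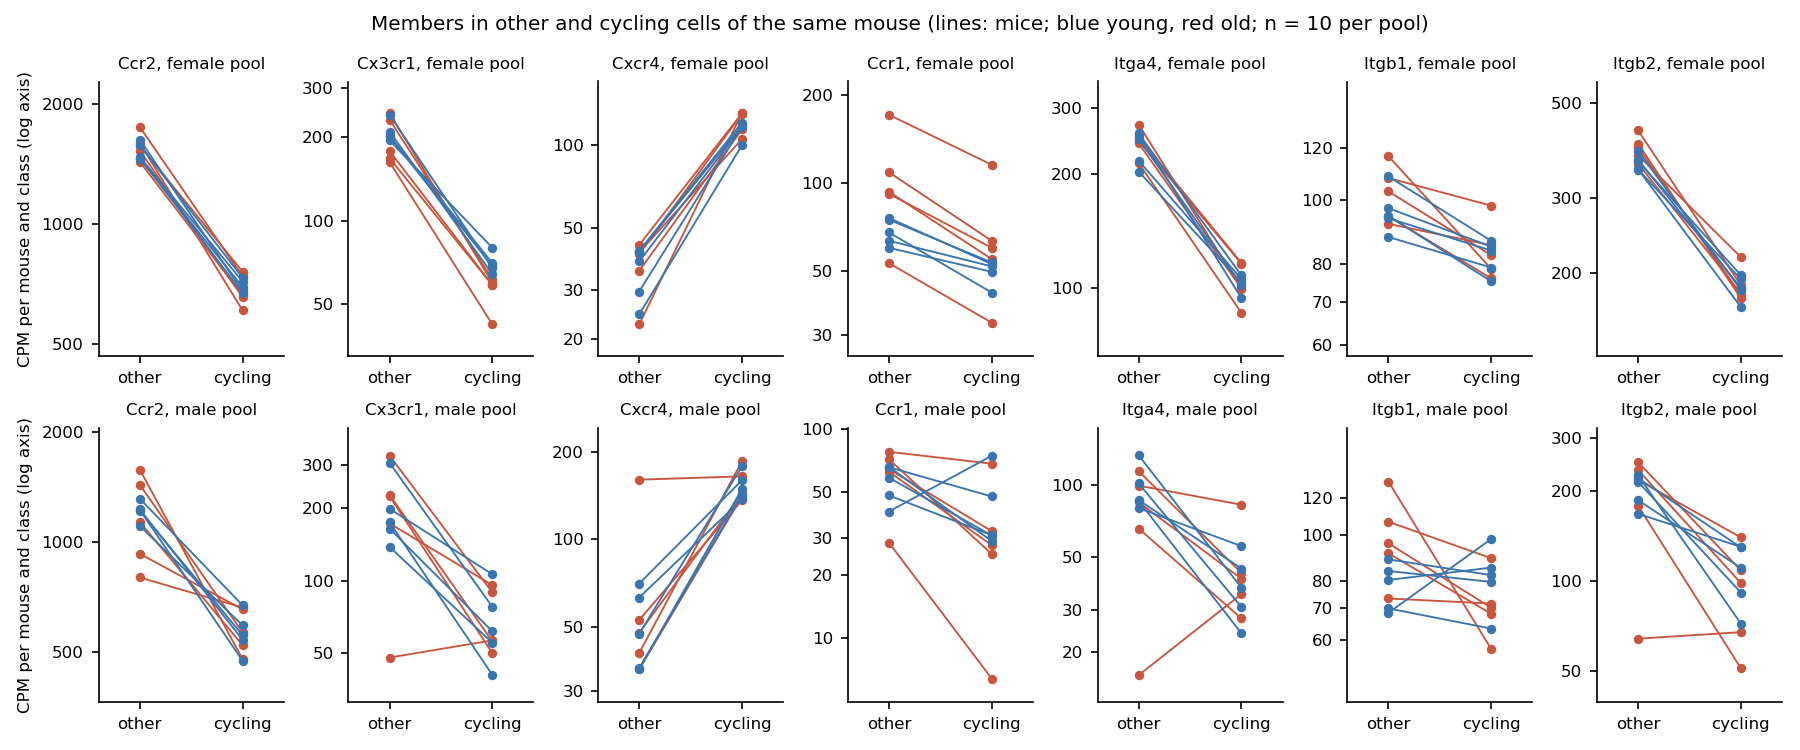
CPM of each member (log axis) in the cells without a cycling UMI (other) and in the cycling cells of the same mouse, with 1 line per mouse, young in blue and old in red, for 10 mice per pool. Cxcr4 rises along every line, and the lines of Ccr2 fall in every mouse of both pools.

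Cxcr4 was the one member that was higher in cycling cells. In females it had 22.5 to 43.6 CPM in other cells (median 39.2, n = 10 mice) and 100.03 to 131 CPM in cycling cells (median 117). The difference was 1.68 on the log2 scale (95% interval 1.56 to 1.80, adjusted p = 1.92e-22 by the quasi-likelihood test of edgeR with the mouse as a block), with the same direction in 10 of 10 mice. In males it had 35.6 to 160 CPM (median 47.4) in other cells and 136 to 186 CPM (median 146) in cycling cells, a log2 difference of 1.62 (1.31 to 1.93, adjusted p = 1.45e-09 by edgeR) and again higher in 10 of 10 mice. The value of 160 CPM came from the 9 other cells of old male 4, and without this mouse the difference was 1.72. Of the genes tested, 5.32% in females and 2.80% in males had a higher log2 difference than Cxcr4.

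Cx3cr1 differed in the opposite direction by as much. In females it fell from 163 to 245 CPM in other cells (median 202) to 42.2 to 79.8 CPM in cycling cells (median 62.8), which is 0.311-fold (log2 -1.68, 95% interval -1.79 to -1.58, adjusted p = 8.33e-25 by edgeR), and it was lower in 10 of 10 mice. In males the log2 difference was -1.54 (-1.83 to -1.25, adjusted p = 1.33e-09 by edgeR), lower in 9 of 10 mice, the exception being old male 4. Only 1.49% of female and 1.41% of male genes had a lower log2 difference.

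Ccr2, the egress receptor itself, had 1432 to 1750 CPM in other female cells (median 1549) and 608 to 760 CPM in cycling cells (median 687). The log2 difference was -1.16 (-1.22 to -1.10, adjusted p = 2.49e-26 by edgeR) in females and -1.06 (-1.25 to -0.88, adjusted p = 2.23e-10 by edgeR) in males, with every mouse of both pools lower in cycling cells. In the male pool Ccr2 ranged from 802 to 1582 CPM in other cells and from 474 to 673 CPM in cycling cells. Of the genes tested, 4.20% of female and 3.57% of male genes were lower still.

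The 2 chains of VLA-4 had differences of unlike size. Itga4 fell from a median of 247 CPM (203 to 271) in other female cells to 103 CPM (86.0 to 117) in cycling cells, a log2 difference of -1.21 (-1.29 to -1.14), and in males the log2 difference was -1.13 (-1.48 to -0.78). Itgb1 differed by -0.24 in females (-0.33 to -0.15, adjusted p = 7.95e-06 by edgeR), from a median of 96.0 to 83.1 CPM, lower in 10 of 10 mice. In males the Itgb1 difference of -0.19 (-0.47 to 0.10, adjusted p = 0.281 by edgeR) did not pass the test, and its interval includes the female value. Itgb2, the beta chain of the CD11a and CD11b integrins, had a median of 373 CPM (349 to 431) in other female cells and 184 CPM (167 to 218) in cycling cells, a log2 difference of -1.01 (-1.09 to -0.93), with -0.99 (-1.23 to -0.74) in males.

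In females Ccr1 had 53.0 to 171 CPM in other cells (median 75.2) and 33.1 to 115 CPM in cycling cells (median 52.9), so that the classes overlapped between mice, while within a mouse it was lower in cycling cells in 10 of 10. The log2 difference was -0.56 (-0.66 to -0.46) in females and -0.69 (-1.10 to -0.28, adjusted p = 0.00554 by edgeR) in males, where young male 4 was the exception. The male call was lost without cells that carried other cell types' markers (-0.52, adjusted p = 0.110 by edgeR).

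These differences are of the share of RNA and not of molecules per cell. The cells called cycling held more UMIs, with a median of 14911 against 7514 in females and 7879 against 3901 in males. The classes were set at the cells' own depth, where a deep cell is more easily called cycling. More UMIs per cycling cell are thus favored in advance for any gene. Counted per cell, Cxcr4 still rose, from a median of 0.296 to 1.88 UMIs over the 10 females and from 0.197 to 1.10 UMIs over the 10 males, in every mouse. Itgb1 also had more UMIs per cycling cell in all 10 females (0.739 against 1.25), as did Ccr1 (0.533 against 0.782), although both had lower CPM. Ccr2 (11.998 against 11.1), Cx3cr1 (1.52 against 1.002) and Itga4 (1.92 against 1.5995) had fewer UMIs per cycling cell in all 10 females, while Itgb2 (2.88 against 2.80) had fewer in 6 of 10. In males Ccr2, Cx3cr1 and Itga4 had fewer UMIs per cycling cell in 7 of 10 mice.

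A deeper cell is more likely to show a UMI of Mki67 or Top2a, so the comparison was repeated with every cell thinned to 2000 UMIs and classed at that depth. The female differences kept their direction and all 7 still passed, with log2 values of 1.48 for Cxcr4, -1.36 for Cx3cr1, -1.02 for Itga4, -0.90 for Ccr2, -0.76 for Itgb2, -0.46 for Ccr1 and -0.23 for Itgb1. The shares of all genes passing at that depth are not given. In males 3 members had enough UMIs to be tested, and Ccr2 (-0.57) and Cx3cr1 (-0.99) passed while Itgb2 (-0.44, adjusted p = 0.157 by edgeR) did not. When a cycling cell had to hold 3 or more such UMIs, the female differences of Cxcr4 and Cx3cr1 were 1.88 and -2.15. Most immature myeloid genes moved with the class: 7 of 8 tested rose in cycling female cells and 1 fell. Mpo, which encodes a granule enzyme of progenitors, was at 3.46 and Ms4a3 at 3.49 on the log2 scale. The summed list was 444 to 1649 CPM in other cells and 6009.6 to 10534 CPM in cycling cells. In males the same list was 764 to 2558 and 3213 to 7982 CPM. The part of these immature cells in the receptor differences was not tested.

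Upstream windows of the 3 receptors with opposite differences are shown for their sequence context, read from RefSeq (GRCm38.p6) as the 250 bases before the start that RefSeq annotates, on the strand of the gene. Capitals mark matches on either strand to 4 motifs. The motif TATAAA is the classical core promoter box, and CCGCCC is the box bound by Sp1. The letters GAGGAA form a core bound by ETS factors such as PU.1. The CHR element, which is found in many cell cycle promoters, was searched as TTTGAA and, in the other form known for it, as TTCGAA. Matches to different motifs may overlap, and a match says only that the letters are present.
Cxcr4: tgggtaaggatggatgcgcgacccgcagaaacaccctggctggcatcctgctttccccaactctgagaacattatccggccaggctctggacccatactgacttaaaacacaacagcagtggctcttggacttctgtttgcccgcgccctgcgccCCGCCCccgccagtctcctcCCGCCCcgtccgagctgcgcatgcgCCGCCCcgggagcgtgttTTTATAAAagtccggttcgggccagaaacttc
Ccr2: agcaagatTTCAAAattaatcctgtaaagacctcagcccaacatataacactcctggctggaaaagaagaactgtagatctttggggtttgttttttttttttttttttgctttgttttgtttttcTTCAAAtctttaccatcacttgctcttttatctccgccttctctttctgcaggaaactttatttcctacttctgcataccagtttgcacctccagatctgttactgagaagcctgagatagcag
Cx3cr1: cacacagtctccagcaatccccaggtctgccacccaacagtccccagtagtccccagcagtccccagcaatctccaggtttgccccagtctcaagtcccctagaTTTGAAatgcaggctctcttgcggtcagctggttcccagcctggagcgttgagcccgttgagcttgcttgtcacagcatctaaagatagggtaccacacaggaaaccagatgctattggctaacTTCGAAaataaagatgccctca
The Cxcr4 window lies at chr1:128592300-128592549 on the minus strand, the Ccr2 window at chr9:124101933-124102182 on the plus strand and the Cx3cr1 window at chr9:120068297-120068546 on the minus strand. The Cxcr4 window held 3 GC boxes, which 32.7% of all 32851 promoters of this length held at least once, and a TATAAA match on each strand, the matches overlapping each other. At least 1 TATAAA match, on either strand, was held by 12.4% of promoters. The Cxcr4 window had no CHR match, whereas the Ccr2 and Cx3cr1 windows held 2 each, and 17.1% of promoters held at least 1. The Ccr1 window had a single GAGGAA match (23.3% of promoters), and the Itga4 and Itgb1 windows each had 1 GC box, Itgb1 with a GAGGAA match beside it. The 6 windows found were 37.2% (Ccr2) to 68% (Itgb1) G and C, against a median of 52.4% over all promoters. In the GENCODE vM21 annotation of GRCm38 the genes lie at chr9:124101950-124113557 (Ccr2, plus strand), chr9:119901616-120069879 (Cx3cr1, minus), chr1:128588199-128592293 (Cxcr4, minus), chr9:123962124-123968692 (Ccr1, minus), chr2:79255426-79333123 (Itga4, plus), chr8:128685654-128733200 (Itgb1, plus) and chr10:77530252-77565708 (Itgb2, plus). RefSeq and GENCODE place some starts differently: 233 bases of the Ccr2 window and all 250 of the Cx3cr1 window lie inside the GENCODE gene, and 0 of the windows of Cxcr4, Ccr1, Itga4 and Itgb1. Ccr1, Ccr2 and Cx3cr1 share chromosome 9.

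Old and young mice were compared next, the contrast for which the study was designed. No member passed the test in either pool, against 3.45% of the genes tested in females and 0% in males. The male count of 0 genes was made with edgeR, which gave 618 genes an unadjusted p under 0.05, and DESeq2 called 22 genes. Over all cells of a mouse, the old and young mice overlapped for all 7 members in both pools, while they did not overlap for 5.77% of female and 2.1% of male genes. A sum over a mouse's cells cannot tell fewer cells of a kind from less RNA in each.

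**Figure D2:**
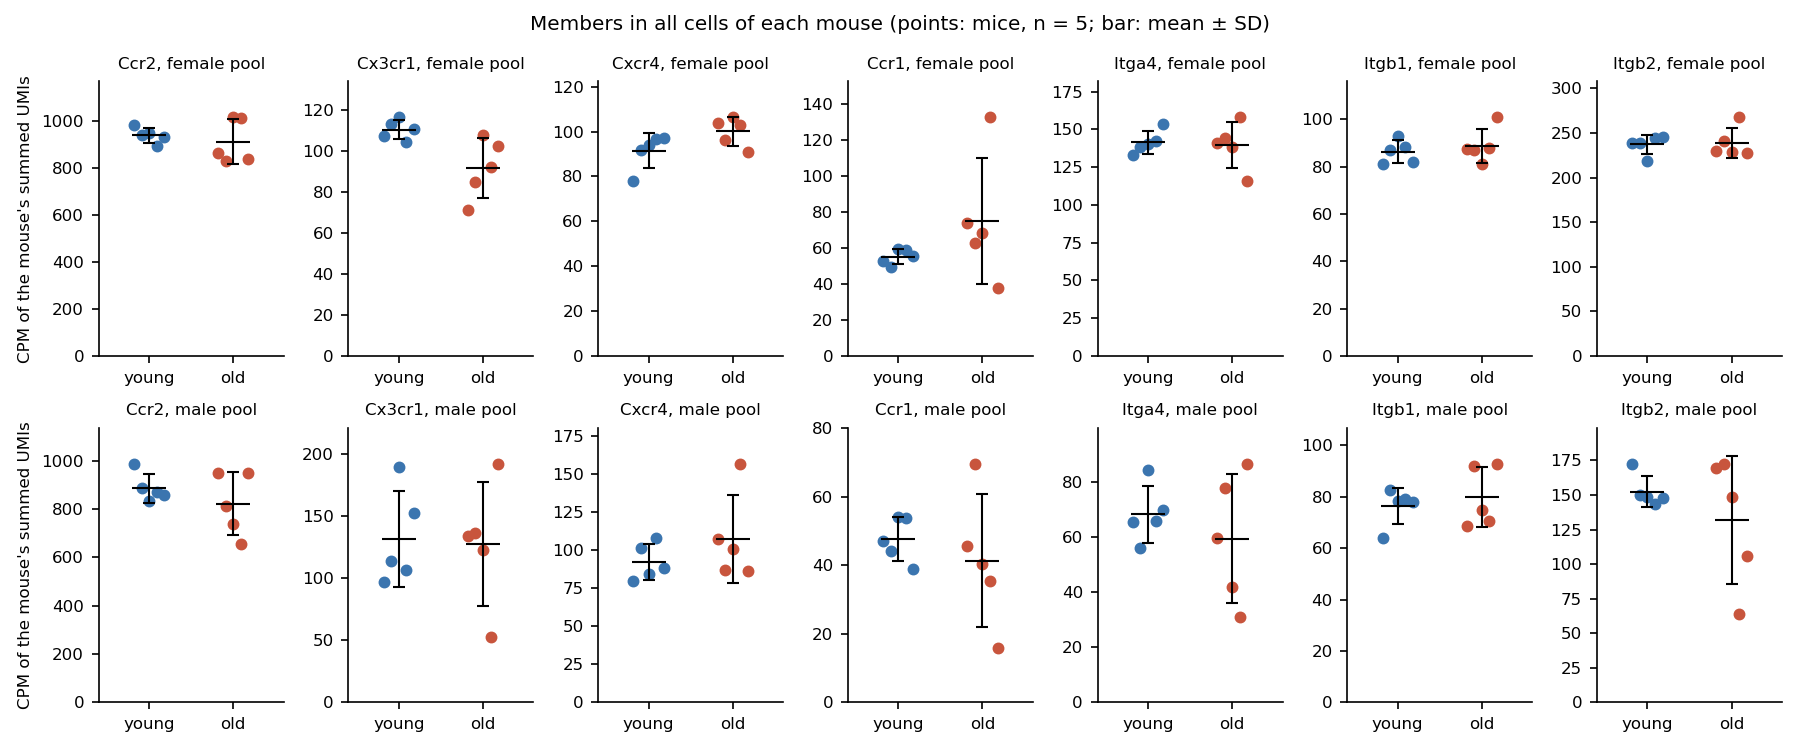
CPM of each member in the summed cells of each mouse, 1 point per mouse, with the mean and SD of 5 mice as a bar, by age and pool. The old females sit lower than most young females for Cx3cr1, and old female 4 stands at 133 CPM for Ccr1.

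Cx3cr1 had the lowest unadjusted p of the 7 in females. The young females had 107, 114, 117, 105 and 111 CPM and the old females 71.4, 84.9, 108, 92.4 and 102 CPM, with 1 old mouse inside the range of the young. The log2 difference, old minus young, was -0.25 (-0.44 to -0.07), 0.838-fold, with an unadjusted p of 0.00951 and an adjusted p of 0.131 by edgeR. Leaving out old female 3 brought it past the threshold (-0.32, adjusted p = 0.0410). In males the values were 96.8, 113, 190, 106 and 153 CPM in the young and 134, 136, 122, 53.1 and 192 CPM in the old, a difference of -0.06 (-0.54 to 0.42), which turned to 0.11 without old male 4.

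Ccr1 was higher in 4 of 5 old females than in any young female. The young females had 52.6, 49.6, 59.2, 59.0 and 55.4 CPM and the old females 74.0, 63.0, 68.4, 133 and 37.8 CPM, a log2 difference of 0.47 (-0.0045 to 0.95, adjusted p = 0.307 by edgeR). The old females thus held both the highest and the lowest value. In males the young had 47.3, 44.2, 54.2, 54.0 and 39.1 CPM and the old 45.8, 69.7, 40.3, 35.4 and 16.008 CPM, a difference of -0.11 (-0.58 to 0.37).

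For Cxcr4, the retention receptor, the young females had 78.1, 91.8, 93.9, 96.5 and 97.0 CPM and the old females 104, 96.2, 106, 103 and 90.9 CPM. The difference was 0.13 on the log2 scale (-0.0047 to 0.27, adjusted p = 0.323 by edgeR), and 3 of 5 old females lay above the young. In males the young had 79.9, 102, 84.3, 108 and 88.3 CPM and the old 107, 87.1, 101, 157 and 86.4 CPM, a difference of 0.22 (-0.10 to 0.55) that was 0.08 without old male 4.

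Ccr2 was at 981, 940, 947, 892 and 931 CPM in young females and 864, 831, 1015, 1013 and 837 CPM in old females, a log2 difference of -0.04 (-0.16 to 0.08). In males Ccr2 was at 987, 886, 832, 869 and 856 CPM in the young and 951, 812, 740, 654 and 951 CPM in the old (-0.11, -0.31 to 0.10). The integrin chains had female differences of -0.02 for Itga4 (-0.17 to 0.13), 0.04 for Itgb1 (-0.09 to 0.17) and 0.01 for Itgb2 (-0.10 to 0.12). The male intervals were wider, at -0.23 for Itga4 (-0.68 to 0.22), 0.04 for Itgb1 (-0.24 to 0.33) and -0.15 for Itgb2 (-0.52 to 0.22), and without old male 4 the values were -0.10, 0.07 and 0.01. The lowest Itga4 value (30.9 CPM) and the lowest Itgb2 value (64.1 CPM) of the old males both came from that mouse.

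The age difference was also set against sex in all 20 mice. No member passed, against 0.0226% of the genes tested, and the widest interval was that of Ccr1 (female minus male difference 0.57, -0.36 to 1.51).

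The share of cycling cells was compared by age as well, since the members differ between the classes. Its part in the age differences of the sums was not tested. With cells thinned to 2000 UMIs, 34.9 ± 2.31% of cells were cycling in young and 38.9 ± 3.87% in old females (SD, n = 5 mice each, difference 3.96 percentage points, two-sided exact permutation p = 0.0952). In males the shares were 18.2 ± 2.97% and 26.5 ± 12.7% (difference 8.29, exact permutation p = 0.0794), with 48.9% in old male 4, without which the difference was 2.69 (exact permutation p = 0.159). With HTODemux singlets only the male difference was 7.78 (exact permutation p = 0.0397). The exact permutation p was 0.0476 without young female 4 (4.87) or old female 4 (5.14), and also without old male 3 (10.1). At the cells' own depth the male difference was 16.8 percentage points with an exact permutation p of 0.00794, the smallest that 5 mice against 5 allow, but old males then also had deeper cells, with a median of 4490 to 8844 UMIs per mouse against 3806 to 4456 in the young. Old male 4 had 81.6% at own depth, the other old males 34.5, 31.9, 42.4 and 37.5%, and the young males 25.4 to 30.5%. The test was not repeated without old male 4 at this depth or with singlets.

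Within the cells without a cycling UMI, age was compared again, and no member passed in either pool, against 4.48% of the genes tested in females and 0% in males (323 male genes had an unadjusted p under 0.05). Ccr1 came closest. The young females had 60.4, 68.2, 74.7, 75.6 and 64.0 CPM in these cells and the old females 109, 92.0, 90.9, 171 and 52.8 CPM. The log2 difference was 0.66 (0.26 to 1.05, adjusted p = 0.0525 by edgeR), with 4 of 5 old females above every young female. It passed the threshold without old female 5, which had the low value (0.80, adjusted p = 0.00272 by edgeR). It also passed without old female 3 (0.73, adjusted p = 0.0315 by edgeR) and under 5 other settings with values from 0.63 to 0.87. Leaving out any other mouse did not bring it past the threshold, including old female 4, which had the highest value (171 CPM). The neutrophil list, whose cells also use Ccr1, summed to 305 to 434 CPM in the young and 250 to 398 CPM in the old of these cells, and of its 4 tested genes Lcn2 rose (1.25) and Cd177 fell (-0.46). Of the 6 genes of the Ly6C-high list Chil3 (0.90) and Ly6c2 (0.43) rose. The 1 tested gene of the dendritic cell list, Cd209a (-1.76), and of the B cell list, Cd79b (-0.65), fell. The part of these markers in the Ccr1 difference was not tested. Cx3cr1, by contrast, had 203, 197, 241, 210 and 205 CPM in young and 163, 176, 230, 168 and 243 CPM in old females, a difference of -0.09 (-0.29 to 0.11), against -0.25 over all cells. In the cycling cells the young females had 68.5, 79.8, 67.4, 64.2 and 70.3 CPM of Cx3cr1. The old females had 42.2, 58.5, 61.5, 58.6 and 59.8 CPM there, each below every young female. Age was not tested in the cycling cells alone, and the share of genes without overlap was not counted there. In male cells without a cycling UMI the age differences ran from -0.19 for Itga4 (-0.66 to 0.28) to 0.31 for Itgb1 (-0.07 to 0.70). Old male 4 had the lowest Itga4 value there, 15.9 CPM from 1 UMI in 9 cells.

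**Figure D3:**
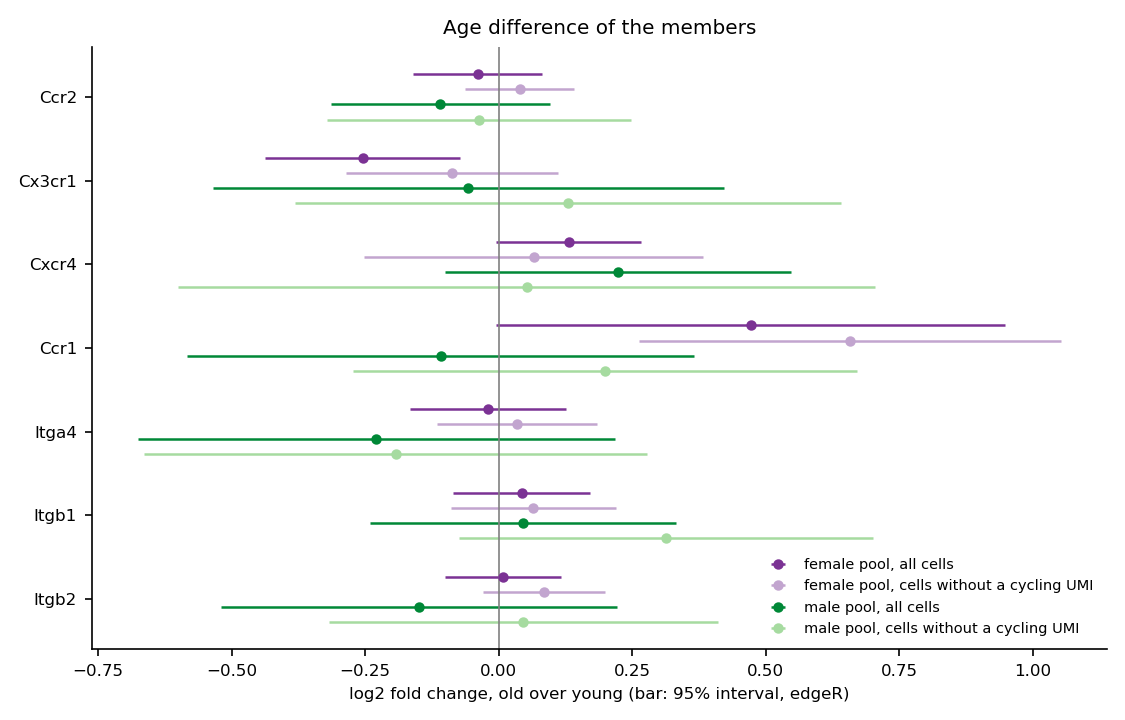
Log2 fold change of old over young (x axis) for each member (y axis) with its 95% interval from edgeR, in all cells and in cells without a cycling UMI of both pools, 5 mice per age. The intervals exclude 0 for Cx3cr1 in all female cells (-0.44 to -0.07) and for Ccr1 in female cells without a cycling UMI (0.26 to 1.05), and both missed the threshold after adjustment over all genes.

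Whether the cycling difference depended on age was tested as an interaction. No member passed, against 0.133% of the genes tested in females and 0% in males, where edgeR gave 204 genes an unadjusted p under 0.05. The largest female value was that of Cx3cr1, whose fall in cycling cells was greater in old mice by 0.19 (interaction -0.19, -0.38 to -0.0017, adjusted p = 0.748 by edgeR). The cycling to other ratio of Cx3cr1 was 0.280 to 0.410 in young females and 0.244 to 0.349 in old females, so the ages overlapped. In males the interaction of Itgb1 was -0.51 (-1.06 to 0.04) and that of Cxcr4 was -0.05 (-0.72 to 0.62).

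Cxcr4 and the other members were then compared from cell to cell. Among cells without a cycling UMI, thinned to 2000 UMIs, cells with at least 1 Cxcr4 UMI were set against cells with none in the same mouse, which chooses on Cxcr4 but not on the other 6. None of the 6 passed in females, against 0.122% of the genes tested, and Ccr2, the only one with enough UMIs in males, did not pass either, against 0.847% of the genes there. These shares are 3 genes in each pool and include Cxcr4 itself, which sets the classes. Ccr2 had a median of 1747 CPM in Cxcr4-positive and 1813 CPM in Cxcr4-negative female cells (log2 -0.11, -0.26 to 0.04), and was lower in 8 of 10 mice. Itgb2 was at 319 against 443 CPM (-0.22, -0.49 to 0.05) and Cx3cr1 at 230 against 256 CPM (-0.02, -0.37 to 0.33). In males the Ccr2 difference was -0.39 (-0.80 to 0.02). The Cxcr4-positive cells were few, with 225 Cxcr4 UMIs over the 10 females and 67 over the 10 males. Without thinning a deeper cell more easily shows a Cxcr4 UMI, so that depth can set the class. With cells at their own depth, Ccr2 (-0.15, adjusted p = 0.000472 by edgeR) and Cx3cr1 (-0.32, adjusted p = 0.000348) passed in females. In males Ccr2 (-0.55, adjusted p = 0.000376 by edgeR) passed there, as did Cx3cr1 (-1.16) and Itgb2 (-0.54), which were not tested in males at 2000 UMIs. At 2000 UMIs with no filter on low counts, Ccr2 (-0.50) and Itgb2 (-0.61) passed in females and Ccr2 (-1.08), Cx3cr1 (-1.25) and Itgb2 (-1.18) in males, where the median over all genes was itself at -0.42 in females and -0.70 in males. The shares of all genes called under these settings are not given, and the cause of these changes was not tested.

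The female pool also held counts of antibodies against 6 surface proteins, which give a readout independent of RNA. Cells without a cycling UMI were ranked by each antibody within their mouse, and the upper tercile was compared with the lower tercile, with 36 to 242 cells per mouse and tercile. The antibody's own gene rose with it where it was tested: Itgam with CD11b (log2 0.31), Csf1r with CD115 (0.32), Ly6c2 with Ly6C (0.34) and H2-Aa with MHC-II (4.35), each with an adjusted p under the threshold.

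By surface CD11b, 6 of the 7 passed, against 31% of the genes tested, 5 as higher (15.1% of genes) and 1 as lower (15.9% of genes). The antibody had a median of 23 to 32 counts in the lower and 79 to 120 counts in the upper tercile of a mouse. Cx3cr1 had 94.8 to 188 CPM in the lower (median 151) and 218 to 320 CPM in the upper tercile (median 258). Its log2 difference of 0.79 (0.66 to 0.92, adjusted p = 7.49e-13 by edgeR) exceeded that of 98.3% of genes. Itga4 rose from a median of 186 to 310 CPM (0.63, 0.51 to 0.75, adjusted p = 3.11e-11 by edgeR), and both were higher in 10 of 10 mice. The other higher members were Ccr2 (0.26, 0.20 to 0.32), Itgb1 (0.23, adjusted p = 0.0424 by edgeR, 7 of 10 mice) and Itgb2 (0.20, 0.10 to 0.29), the partner chain of CD11b itself. Ccr1 was lower (-0.24, -0.42 to -0.06, adjusted p = 0.0325 by edgeR), but its direction turned when cells were thinned (0.18). The Ccr1 call was also lost when young female 4 or 5 or old female 1, 2 or 3 was left out, and that of Itgb1 when young female 2 or 4 or old female 3 or 4 was left out. Both calls were also lost with DESeq2 (adjusted p = 0.247 for Ccr1 and 0.281 for Itgb1) and without the mouse as a block (0.492 and 0.126 by edgeR). They were lost with centred log ratios (0.921 and 0.288 by edgeR) and without cells carrying other cell types' markers (0.392 and 0.191). The last setting kept 2236 of 6636 female cells. With Il6ra of the basophil list not counted it kept 5726, and both calls held. That of Ccr1 was lost with no filter on low counts (0.0797 by edgeR) and when cells were split at the median (0.105), and that of Itgb1 with library size alone (0.0576) and with every barcode (0.0651). Cxcr4 was at -0.20 (-0.45 to 0.04) and passed as lower when cells were thinned (-0.79, adjusted p = 0.000216 by edgeR). For this and the other antibodies, the cells without a cycling UMI were chosen anew after thinning. Cells with a cycling UMI only at their own depth thus entered the set. The thinned values of Cxcr4 and Ccr1 therefore differ in both cells and depth, and the part of each was not tested. The upper tercile held 0.932 times the RNA UMIs per cell of the lower in the median mouse.

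Surface MHC-II gave a similar order. Of the 7, 4 passed, against 14.6% of the genes tested, 3 as higher (7.69% of genes) and 1 as lower (6.96% of genes). Cx3cr1 had a median of 165 CPM in the lower and 259 CPM in the upper tercile (0.64, 0.48 to 0.79, adjusted p = 2.13e-08 by edgeR) and was higher in 9 of 10 mice. Itga4 (0.34, 0.23 to 0.46) and Ccr2 (0.16, 0.09 to 0.23) were also higher, while Ccr1 fell from a median of 83.5 to 61.2 CPM (-0.48, -0.66 to -0.30, adjusted p = 0.000122 by edgeR) and was lower in 9 of 10 mice, a call that was lost when cells were thinned (-0.31, adjusted p = 0.174 by edgeR) and without the mouse as a block (-0.49, adjusted p = 0.160). The call of Ccr2 was lost without cells carrying other cell types' markers (0.16, adjusted p = 0.0710 by edgeR), but held when Il6ra was not counted. With centred log ratios the Ccr2 call was lost too (0.06, adjusted p = 0.392 by edgeR). The same genes passed by surface Flt3, a cytokine receptor of dendritic cell progenitors, apart from Itga4. There 3 of 7 passed, against 5.61% of the genes tested, Cx3cr1 (0.41, 0.28 to 0.55) and Ccr2 (0.13, 0.06 to 0.20) as higher (3.14% of genes) and Ccr1 (-0.36, -0.55 to -0.16, adjusted p = 0.0176 by edgeR) as lower (2.46% of genes). The call of Ccr1 was lost without young female 4 (-0.27) or old female 4 (-0.29), and with centred log ratios no member passed by Flt3 (Cx3cr1 0.13). It was also lost with DESeq2 (adjusted p = 0.208), every barcode (0.0605 by edgeR), thinned cells (0.0784) and a split at the median (0.0514). Ccr1 and Ccr2 both lost their calls without cells carrying other cell types' markers (adjusted p = 0.239 and 0.241 by edgeR). The same held without the mouse as a block (0.556 and 0.261). Flt3 counts were low, with a median of 0 to 5 in the lower and 1 to 14 in the upper tercile.

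By the other antibodies fewer members passed. With surface Ly6C, a protein used for the sort as CD11b and CD115 also were, 2 of 7 passed, against 4.44% of the genes tested. Cx3cr1 was lower (-0.28, -0.41 to -0.15, adjusted p = 0.00383 by edgeR) and Ccr1 higher (0.38, 0.19 to 0.57, adjusted p = 0.0111 by edgeR). The call of Ccr1 was lost without old female 4 (0.30), and DESeq2 gave it no adjusted p. It was also lost with thinned cells (adjusted p = 0.0671 by edgeR), every barcode (0.0713) and without the mouse as a block (0.517). That of Cx3cr1 was lost with every barcode (-0.14, adjusted p = 0.322 by edgeR) and without the mouse as a block (0.212). It was also lost without cells carrying other cell types' markers (-0.20, adjusted p = 0.441 by edgeR). The directions of both genes with Ly6C are opposite to those seen with CD11b and MHC-II. With CD115, the receptor for M-CSF, only Cx3cr1 of the 7 passed (0.29, 0.17 to 0.41, adjusted p = 0.00249 by edgeR), against 0.6% of the genes tested, and it did not pass when cells were thinned (0.20, adjusted p = 0.287 by edgeR) or with centred log ratios (0.019, adjusted p = 0.943). With CD11c, again only Cx3cr1 of the 7 passed (0.22, 0.09 to 0.36, adjusted p = 0.0412 by edgeR), against 4.01% of the genes tested, and leaving out young female 3 or 4 or old female 1, 4 or 5 ended this call. With centred log ratios it was at -0.13 (adjusted p = 0.882 by edgeR). Counts of CD115 were low, with a median of 0 to 1 in the lower and 5 to 12 in the upper tercile. Those of CD11c were also low (0 to 2 and 2 to 9). Cells with tied counts at the edge of a tercile were placed by barcode order. At the cells' own depth Cxcr4 did not pass with any of the 6 antibodies, with values from -0.20 (CD11b) to 0.21 (Ly6C, -0.08 to 0.50), but with centred log ratios it passed as higher with Ly6C (0.44, adjusted p = 0.0147 by edgeR).

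**Figure D4:**
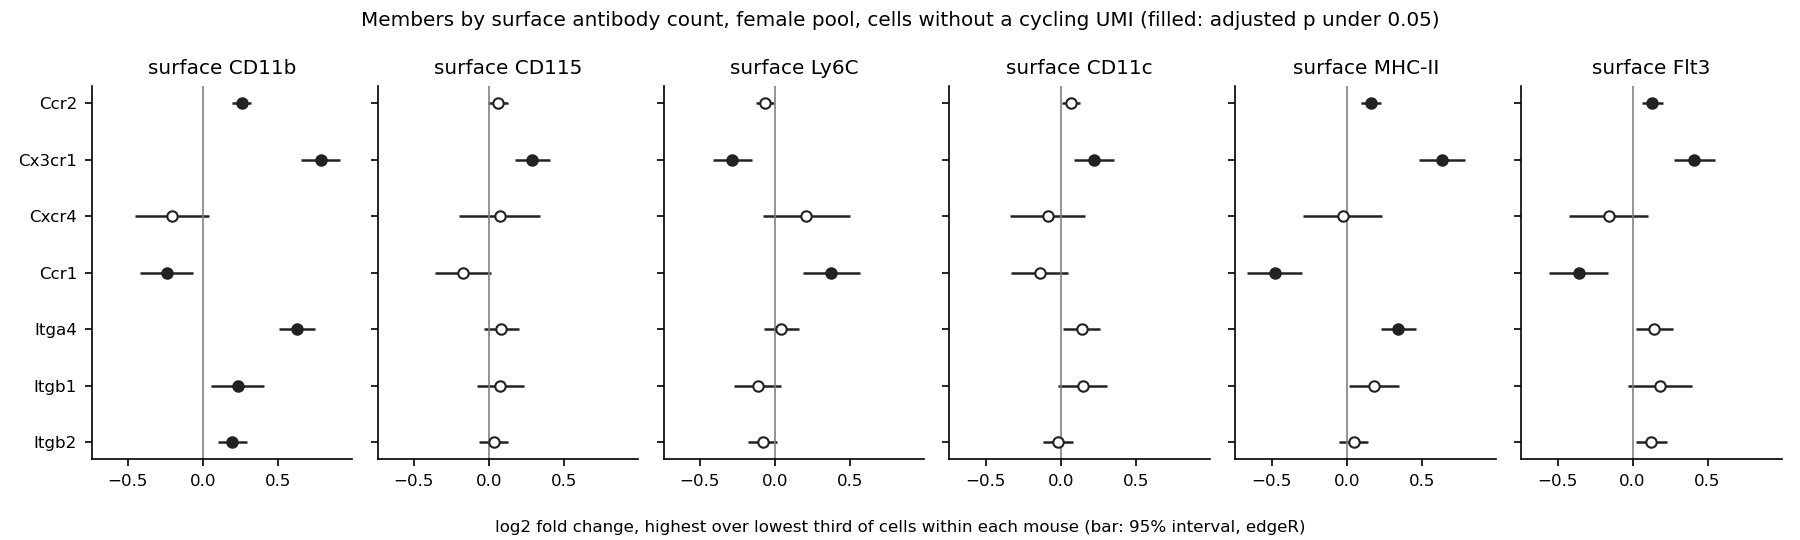
Log2 fold change of each member (y axis) between the cells of each mouse with the most and the least antibody counts, with its 95% interval from edgeR, for 6 surface antibodies in 10 female mice. Filled points passed the threshold. As plotted, Cx3cr1 passed in every panel, as higher in 5 and as lower for Ly6C (-0.28), and with centred log ratios it did not pass for CD115, CD11c or Flt3.

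The rest of the trafficking machinery was read from 5 lists of genes, each described by its counts. Among 25 other chemoattractant receptors, 13 were tested by age in females, 2 rose, 1 fell, and the median log2 difference was 0.01, beside -0.0027 over all genes. The formyl peptide receptor Fpr2 (0.69, adjusted p = 0.00566 by edgeR) was among those higher in old females, and Gpr183, the receptor for oxysterols, was lower (-0.32). Ltb4r1 (-0.22, adjusted p = 0.144 by edgeR) did not pass. Among 15 other integrin chains, 9 were tested and 2 fell, Itgb3 (-0.89) and Itga1 (-0.43), while Itga5 (0.33) and Itga6 (-0.33) did not pass. None of 11 tested selectins, their ligands and junction molecules passed, with Cd177 at -0.55, Icam1 at 0.45 and Cd44 at 0.16. Of the members' ligands, 9 were tested and 2 fell in old females: Ccl3 (-1.50, adjusted p = 4.88e-07 by edgeR) and Ccl4 (-1.04). Fn1 (-0.30) and C3 (-0.11) did not pass. Of 34 tested genes of integrin activation and receptor signaling 2 fell, Rgs2 (-0.37) and Rgs10 (-0.25), both regulators of G protein signaling, with Rgs1 (-1.20, adjusted p = 0.0518 by edgeR) and Arrb1 (-0.21) short of the threshold. No gene of the 5 lists passed by age in males, where 4, 5, 9, 6 and 32 of them were tested in this order.

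By cycling, 38.6% of all genes tested passed as lower and 36.2% as higher in females, and 25.3% and 23.7% in males. In females 9 of 10 tested chemoattractant receptors fell and 1 rose (median log2 difference -1.04, beside -0.02 over all genes), with P2ry6 at -1.71, Fpr2 at -2.71 and C5ar1 at -1.71. S1pr4, a sphingosine 1-phosphate receptor, was the one that rose (0.87). Of 9 other integrin chains 7 fell and 2 rose, and the alpha partners of Itgb2 fell with it, Itgam by 1.46 and Itgal by 1.04 on the log2 scale, as did Itgav (-1.15), while Itga1 rose (1.09). Of 11 adhesion molecules 6 fell and 4 rose, with Cd177 at -1.70, Cd44 at -0.73 and Spn, which encodes CD43, at 1.21. All 8 tested ligands fell (median -1.34), with Ccl6 at -1.78, Ccl9 at -1.29, Ccl3 at -1.39 and Fn1 at -0.83. Of 33 signaling genes 22 fell and 7 rose, with a median of -0.24, and Rgs2 (-1.21), Apbb1ip (-0.92) and Rap1b (-0.60) fell while Rasgrp2 (0.77) rose. In males 2 of 3 receptors, 2 of 3 integrin chains, 3 of 8 adhesion molecules, 5 of 5 ligands and 14 of 29 signaling genes fell, and Spn and Rasgrp2 rose.

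The marker lists describe the cells behind these values. By age in females, 2 of 6 genes of the Ly6C-high list rose, Chil3 (1.02) and Ly6c2 (0.25), 1 of 8 tested immature genes fell, Cd34 (-0.64), and none of 9 Ly6C-low, 5 neutrophil, 2 T or NK cell, 1 basophil, 1 B cell, 2 dendritic cell and 1 erythroid genes passed. No marker passed by age in males, where 6 Ly6C-high, 6 Ly6C-low, 5 immature, 5 neutrophil, 1 T or NK cell, 3 basophil, 1 B cell and 1 dendritic cell genes were tested and no erythroid gene. By cycling in females, 5 of 6 Ly6C-high genes fell (Ccr2 is one of them) and Ly6c2 rose, and 6 of 9 Ly6C-low genes fell, Nr4a1 at -2.49 on the log2 scale, while 2 rose. Of 5 neutrophil genes 3 rose and 2 fell, Nkg7 of the T or NK cell list rose (1.95), Il6ra of the basophil list (-0.85), Cd209a of the dendritic cell list (-0.62) and the 1 erythroid gene tested fell, and the 1 B cell gene did not pass. By cycling in males, 5 of 6 Ly6C-high genes fell and 1 rose, all 5 immature genes rose, 2 of 4 Ly6C-low genes fell and 1 rose, 2 of 3 neutrophil genes fell and 1 rose, the basophil and the dendritic cell gene tested fell, and the T or NK cell gene did not pass.

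The genes whose levels followed each member most closely were taken over the 20 sums of mouse and class in females, where points share the mouse and the difference between classes dominates. Ccr2 was nearest to genes that include Clec4a3 and Fcer1g (Pearson r 0.99 each), with 0.92 and 0.87 in males. Itga4 was nearest to Sh3glb1, Lyn and Fam129a and Itgb2 to Gm2a, Laptm5 and Ptprc (0.99 each). The male values in this order were 0.85, 0.78 and 0.77 for Itga4 and 0.88, 0.66 and 0.87 for Itgb2. Cx3cr1 was nearest to Serp1, Map1lc3b and Ypel3 (0.98 each, with 0.64, 0.54 and 0.83 in males). Cxcr4 was nearest to Snrpe, a splicing gene, and to Bub1b and Esco2, genes of chromosome segregation and cohesion (0.98 each). In males Snrpe had 0.89 and Bub1b 0.75, and Esco2 did not pass the filter on low counts. Ccr1 was nearest to Gda (0.83), Mmp8 (0.82) and D1Ertd622e (0.82), with male values of 0.55, 0.63 and 0.31. Itgb1 was nearest to Arf3 (0.87), Tmem123 (0.87) and Zfos1 (0.86), with male values of 0.40, -0.13 and 0.39. Among the members, Ccr2 and Cxcr4 had r = -0.94 in females and -0.92 in males, and Itga4 with Itgb1 had 0.71 and 0.22.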

How the data were processed

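Single-cell 3' RNA, hashtag and (female pool) surface antibody counts of 20 mice were measured in 2 libraries, 1 per sex. The deposited UMI counts were made by the authors; the submitters' processing notes name Cell Ranger 4.0.0, STAR 2.5.1 and mm10, and the file headers give 3.1.0 (female) and 7.0.0 (male). Cells with over 200 genes and under 5% mitochondrial UMIs were kept. Each cell was given to the mouse of its leading hashtag. In the female pool only singlets of HTODemux (Seurat 5.3.0) were used, so 2478 doublets and 942 negatives were left out. In the male pool all 1227 barcodes were used, among them 401 called doublets. UMIs were summed per mouse, or per mouse and class, and tested across mice with edgeR 4.0.16 (quasi-likelihood, TMM, filter on low counts) in R 4.3.3, with the mouse as a block within mice and Benjamini-Hochberg adjustment at 0.05 over all genes tested. Intervals are 95%. Shares of cycling cells were compared by an exact two-sided permutation test (Python 3.11.15, scipy 1.17.1). Thinned cells had 2000 UMIs drawn at random. They were classed as cycling or not at that depth, except in the Cxcr4-positive comparison, where the cells' own depth was used.

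The members and lists were chosen with earlier results of these data known. Named beside the members were the 4 genes of each list with the lowest unadjusted p in the female age and in the female cycling comparison, and the 3 nearest genes of each member by Pearson r over the 20 female sums (genes with a mean of at least 20 CPM). Other named genes (Ly6g, Gzma and Prss34) were chosen after their values were seen. Some genes that this rule names are not reported here. Age comparisons have no block, since hashtag numbers do not mark paired mice. The scripts were tested on simulated data. Alternatives were DESeq2 1.42.0, library size alone, no filter on low counts, other cell sets, other antibody rankings and leaving out each mouse. One alternative was added after seeing the data: cells with 2 or more UMIs of other cell types' markers were left out without counting Il6ra, because the planned rule removed 4400 of 6636 female cells.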

Additional observations from a re-analysis of the deposited data

Results flagged for a closer look

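Of 88 groups of 5 mice, 10 held a mouse far from the other 4, where chance flags about 1 group in 20. None was weighed for a cause. Over all cells, the first young female was low for Cxcr4 (78.1 CPM, others 91.8 to 97.0) and the third young female for Itgb2 (218 CPM, others 239 to 246). The first young male was high for Itgb2 (172 CPM, others 143 to 150.3) and low for Itgb1 (64.2 CPM, others 78.1 to 82.5).

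Within the classes, the first young female was again low for Cxcr4 in cycling cells (100.03 CPM, others 116 to 121). The first old female was low for Cx3cr1 in cycling cells (42.2 CPM, others 58.5 to 61.5). In the 9 cells without a cycling UMI of the fourth old male, Cxcr4 was at 160.3 CPM (others 35.6 to 52.7). The fifth old male was high for Itga4 in cycling cells (83.0 CPM, others 27.7 to 43.0). The share of cycling cells was low in the third young male (13.0%, others 18.5% to 20.5%) and high in the fourth old male (48.9%, others 19.4% to 24.1%).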

How the results depend on the processing

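Of 331 values of called members under other settings, 284 kept their side of the threshold, 44 lost it and 3 reversed, and of 790 values of members not called, 709 kept theirs, 21 came to pass, 1 reversed and 59 changed sign without passing. Leaving out a mouse ended 17 of 300 calls and made 3 of 889. The causes of the changes below were not tested. The shares of all genes called under these other settings are not given, so the counts of members below have no background beside them. Centred log ratios set each antibody against the mean of the 6 in the same cell, so a cell's rank also depends on the other antibodies. With thinned cells the cells without a cycling UMI were chosen anew at 2000 UMIs, except in the Cxcr4-positive comparison. The count of members called by age in females was 0 to 1 when a mouse was left out (1 without old female 3). In female cells without a cycling UMI the count of 0 became 1, always Ccr1, with no filter on low counts, with thinned cells, with no mitochondrial limit and without cells carrying other cell types' markers, with or without Il6ra counted, and was 0 to 1 when a mouse was left out. Age by cycling gave 1 (Cx3cr1, -0.36) in females with every barcode used. Male cycling gave 2 of 6 calls with thinned cells, where 3 members were tested. For Cxcr4-positive cells the count of 0 became 2 in females and 3 in males, both with no filter and at the cells' own depth, while only Ccr2 of the 6 was tested in males at 2000 UMIs. For CD11b the count of 6 was 4 to 6 and for MHC-II that of 4 was 3 to 4 over all settings. For CD115 the count of 1 became 0 with thinned cells, without other-type cells and with centred log ratios. For Ly6C the count of 2 became 1 with DESeq2 and without other-type cells, 0 with every barcode, 6 with centred log ratios, and 1 to 2 when a mouse was left out. With thinned cells it stayed 2, as Ccr1 lost its call and Ccr2 (-0.15, adjusted p = 0.0392 by edgeR) came to pass. For CD11c the count of 1 became 0 with DESeq2, without other-type cells, with centred log ratios and when cells were split at the median, 2 with every barcode and with thinned cells, and 0 to 1 when a mouse was left out. For Flt3 the count of 3 became 1 without other-type cells and 0 with centred log ratios. With every barcode and with thinned cells it stayed 3, as Ccr1 lost its call and Itga4 came to pass. Leaving out other-type cells kept 2236 female cells. With Il6ra not counted it kept 5726 and ended no antibody call. Reversed values were Ccr1 by CD11b, 0.18 with thinned cells and 0.019 with centred log ratios, Cx3cr1 by CD11c, -0.13, and Itga4 by Ly6C, -0.31, both with centred log ratios. The difference in the share of cycling cells was 2.95 to 5.14 percentage points in females and 2.69 to 10.1 in males when a mouse was left out, and in males 7.78 with HTODemux singlets only (exact permutation p = 0.0397) and 16.8 at own depth (exact permutation p = 0.00794). Old male 4 had the highest share under both of these settings (37.1% and 81.6%).

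Without the mouse as a replicate block, cycling still called 7 members in females and 6 in males, while the counts became 4 for CD11b, 3 for MHC-II, 0 for CD115, 0 for Ly6C, 0 for CD11c and 1 for Flt3. No paired analysis was possible because hashtag numbers do not pair young with old mice, so age comparisons have no block.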
